A study of Homo sapiens with 12 samples.

Results

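The response of LAD2, a human mast cell line, to 12 hours of direct coculture with the human colorectal cancer line HT-29 was followed across 5244 of the 58721 genes in the deposited count table (8.93%). A gene was kept where its mean level in LAD2 alone was at least 10 counts per 1e6 counts (CPM) and its mean level in HT-29 alone was no higher than in LAD2 alone. RNA carried over from HT-29 at those levels would lower such a gene in a LAD2 library. In the cocultured HT-29 libraries, 70 of the 5244 genes had a mean level above that in LAD2 alone, among them 3 of the genes called higher below (PI4K2B, SERPINB6 and CDT1) and 0 of the interferon response genes. Of the 5244 genes, 4978 are annotated as protein coding, and a further 4096 genes passed the CPM minimum but were higher in HT-29 and were left out. At the edge of the CPM minimum, TAGAP lay just inside at a mean of 10.0 CPM in LAD2 alone and MED26 just outside at 9.98 CPM, and at the edge of the HT-29 rule SPAG5 lay just inside, at 108 CPM in LAD2 and 107 CPM in HT-29, and ZNF706 just outside, at 69.4 CPM in both.

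The study sequenced total RNA of both lines, each alone or in coculture with the other. LAD2 alone had 3 libraries, and the LAD2 coculture columns, which are labelled as 3 replicates, were equal in every gene and were counted as 1 library. LAD2 was maintained in SP34 medium with its nutrient supplement and HT-29 in McCoy 5A medium with fetal bovine serum, and RNA was taken with a micro column kit from LAD2 and a mini column kit from HT-29. Neither the coculture medium nor the way of separating the lines is in the labels, so the presence of HT-29 cells and any change of medium or handling cannot be told apart. Each line is a single cell line and not primary tissue, and since no label says that replicate libraries are from different cultures, the p-values cover the spread among these libraries alone, which may be technical. All tests set 1 coculture library against 3 alone libraries, the coculture library was assumed to vary like the alone libraries, and its own spread has no replicate check. A permutation of 1 library against 3 cannot give a one-sided p below 0.25, so the exact test was not informative and the edgeR quasi-likelihood F test across all tested genes was used, with Benjamini-Hochberg adjustment.

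Mast cells are granulated immune cells that carry the stem cell factor receptor KIT and the high-affinity receptor for IgE, and they store histamine and proteases bound to the proteoglycan serglycin. Interferons act on receptors at the cell surface, whose kinases activate STAT transcription factors. These bind, with IRF9, to interferon-stimulated response elements (ISRE) and switch on antiviral genes such as the IFIT, OAS and ISG15 families. Cells match cholesterol synthesis to supply through SREBP transcription factors, which are held in the endoplasmic reticulum by INSIG proteins when sterol is plentiful and which drive the genes of the mevalonate pathway when it is scarce.

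Total counts were 20512127, 20779189 and 22612798 in LAD2 alone and 25367851 in LAD2 coculture. The 15 mast cell markers summed to 21743, 21683 and 21950 CPM alone and to 21323 CPM in coculture, none of them at 0 in any of these libraries. The 25 colorectal epithelium markers summed to 237, 229 and 252 CPM alone, with 11, 17 and 16 of them at 0, and to 1172 CPM in coculture, with 0 of them at 0, and 23 of 25 lay above all 3 alone libraries. Most of the sum alone was KRT19, at 235 CPM. From 327 genes abundant in HT-29 and nearly absent from LAD2, the share of HT-29 RNA in the coculture library was 5.26% (quartiles over genes 4.44% to 6.10%). The 13 markers of other blood cells summed to 1.01 to 2.08 CPM alone and 0.946 CPM in coculture. A share of 5.26% lowers a gene that is absent from HT-29 by 0.08 on the log2 scale, and the counts below are therefore also given from a fit in which the level expected from that mixture was the baseline, called the mixture fit. It takes the HT-29 levels from HT-29 alone.

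Promoters of genes among the 20 largest rises are shown first, with the matches to a short motif that was counted in all promoters. The 4 shown all hold a match. Of the other promoters of the same 20 genes, some hold a match and some do not. Each sequence runs from 250 bases before to 50 bases after the annotated start in RefSeq (GRCh38.p14), 5′ to 3′ on the strand of the gene. In the first 4, of genes that rose, capitals mark an ISRE core, defined here as 2 copies of GAAA with any 2 bases between them, on either strand (copies of TTTC when on the other strand). Overlapping matches run together. The promoters are those of IFIT1 (chr10:89392373-89392672, plus strand), ISG15 (chr1:1013247-1013546, plus strand), HERC5 (chr4:88456869-88457168, plus strand) and IFI6 (chr1:27672143-27672442, minus strand).
IFIT1: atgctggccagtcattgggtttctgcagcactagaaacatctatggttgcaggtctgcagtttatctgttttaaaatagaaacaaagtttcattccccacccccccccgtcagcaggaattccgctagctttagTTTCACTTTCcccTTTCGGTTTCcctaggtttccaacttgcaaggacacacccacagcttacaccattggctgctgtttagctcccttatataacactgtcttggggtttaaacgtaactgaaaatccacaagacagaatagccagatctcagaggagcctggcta
ISG15: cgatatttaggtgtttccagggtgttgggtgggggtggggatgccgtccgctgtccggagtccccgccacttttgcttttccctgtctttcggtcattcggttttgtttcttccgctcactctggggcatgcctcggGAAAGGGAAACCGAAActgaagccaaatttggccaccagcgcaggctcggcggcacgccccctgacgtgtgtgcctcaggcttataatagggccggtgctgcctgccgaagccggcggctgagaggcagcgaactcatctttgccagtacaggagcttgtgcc
HERC5: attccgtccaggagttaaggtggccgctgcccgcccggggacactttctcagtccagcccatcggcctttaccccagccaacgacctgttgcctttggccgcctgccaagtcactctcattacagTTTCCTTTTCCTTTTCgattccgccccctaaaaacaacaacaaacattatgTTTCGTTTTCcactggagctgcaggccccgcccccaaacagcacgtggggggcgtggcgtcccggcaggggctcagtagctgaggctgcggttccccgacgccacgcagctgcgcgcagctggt
IFI6: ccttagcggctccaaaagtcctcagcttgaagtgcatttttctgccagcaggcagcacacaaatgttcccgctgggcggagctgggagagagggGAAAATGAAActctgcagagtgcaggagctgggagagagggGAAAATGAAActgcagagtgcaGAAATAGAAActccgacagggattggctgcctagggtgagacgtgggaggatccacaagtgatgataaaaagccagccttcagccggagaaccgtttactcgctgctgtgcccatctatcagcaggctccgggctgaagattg

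IFIT1 and ISG15 each held 2 matches and HERC5 and IFI6 each 3. The motif was found in 3.65% of all 27305 promoters in the table and in 2.75% of the 4224 promoters matched to the 5244 genes. Among genes called higher it was found in 29 of 191 matched promoters (15.2%), among genes called lower in 14 of 633 (2.21%) and among genes not called in 73 of 3400 (2.15%). Of the interferon response genes, 21 of 38 matched promoters held it (55.3%). It was found in 9 of the 15 matched promoters of the 20 largest rises (60%) and in 0 of the 18 of the 20 largest falls. The promoters of OAS1, IFI35, PARP9, VSIR, HERC6 and HELZ2 held no match, and OAS2, the largest rise, had no matched promoter.

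The promoters of 3 enzymes of the mevalonate pathway whose genes fell are shown next, with capitals marking CCAAT on either strand (ATTGG on the other). They are those of HMGCS1 (chr5:43313363-43313662, minus strand), FDPS (chr1:155308616-155308915, plus strand) and MVD (chr16:88663042-88663341, minus strand).
HMGCS1: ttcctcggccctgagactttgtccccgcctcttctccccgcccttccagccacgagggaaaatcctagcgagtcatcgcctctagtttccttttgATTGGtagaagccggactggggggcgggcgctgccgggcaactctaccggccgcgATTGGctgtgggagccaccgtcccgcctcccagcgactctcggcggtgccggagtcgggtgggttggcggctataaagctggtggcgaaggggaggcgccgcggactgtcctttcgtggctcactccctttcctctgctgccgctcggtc
FDPS: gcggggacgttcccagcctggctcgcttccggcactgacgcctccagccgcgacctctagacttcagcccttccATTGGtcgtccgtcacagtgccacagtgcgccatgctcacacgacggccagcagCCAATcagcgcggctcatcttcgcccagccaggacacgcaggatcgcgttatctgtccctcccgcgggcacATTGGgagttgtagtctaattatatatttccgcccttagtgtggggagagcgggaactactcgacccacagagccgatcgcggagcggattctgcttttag
MVD: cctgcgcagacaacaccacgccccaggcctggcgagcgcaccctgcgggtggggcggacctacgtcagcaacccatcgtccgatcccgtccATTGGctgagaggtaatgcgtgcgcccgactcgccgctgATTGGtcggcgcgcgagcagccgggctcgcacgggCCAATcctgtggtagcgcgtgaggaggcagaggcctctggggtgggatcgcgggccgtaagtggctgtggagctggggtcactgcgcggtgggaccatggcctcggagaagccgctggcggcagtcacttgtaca

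HMGCS1 held 2 matches, and FDPS and MVD 3 each. CCAAT, the box bound by the factor NF-Y, was found in 11 of 14 matched sterol synthesis promoters (78.6%) and in 14 of the 18 matched promoters of the 20 largest falls (77.8%), against 35.7% of all promoters and 37.2% of the matched promoters of the 5244 genes. These 2 sets overlap, since 11 of the 20 largest falls are sterol synthesis genes. Over all genes called lower it was found in 245 of 633 promoters (38.7%), over those called higher in 62 of 191 (32.5%) and over those not called in 1265 of 3400 (37.2%). It was searched after the values of these genes had been seen. The sterol response element written as TCACNCCAC (GTGGNGTGA on the other strand) was found in 0 of the 14 sterol synthesis promoters and in 1.15% of all promoters. At so low a share, 0 of 14 is the usual outcome, so no conclusion is drawn from it.

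Of all 15821 genes tested, 20.8% were called at an adjusted p under 0.05, 14.1% higher and 6.75% lower. Of the 5244 genes of the rule, 1049 were called, which is 20% and close to that background. The direction differed from the background, with 233 higher (4.44%) and 816 lower (15.6%). The rule by construction leaves out genes that are higher in HT-29. Its CPM minimum is set on LAD2 alone, so it also leaves out genes that rose from below that minimum. In the mixture fit, 265 were higher (5.05%) and 391 lower (7.46%), against 2.83% and 3.35% of all tested genes (6.18% in either direction), and the share of higher genes among the calls went from 22.2% to 40.4%. With the levels of cocultured HT-29 in their place, a choice made after the data were seen, 267 were higher and 392 lower. The calls of the fit without mixing and of the mixture fit shared 223 of the 233 higher genes and 391 of the 816 lower genes. Without replicate 3 of LAD2 alone 387 genes were higher and without replicate 1 533 were lower, and DESeq2 called 143 higher (2.73%) and 371 lower (7.07%), 9.8% in all. With limma-voom 188 were higher (3.59%) and 513 lower (9.78%). The coculture library lay outside the range of the 3 alone libraries in 69.2% of the 5244 genes and in 68.4% of all tested genes, so that groups without overlap are the usual case here. Most changes were small, and 11 genes were called at least 2-fold higher and 22 at least 2-fold lower, and 45 and 78 passed 1.5-fold. The median log2 fold change was -0.06 over the 5244 genes and 0.00 over all tested genes, and the mixture alone gives a median of -0.04 for the 5244.

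**Figure D1:**
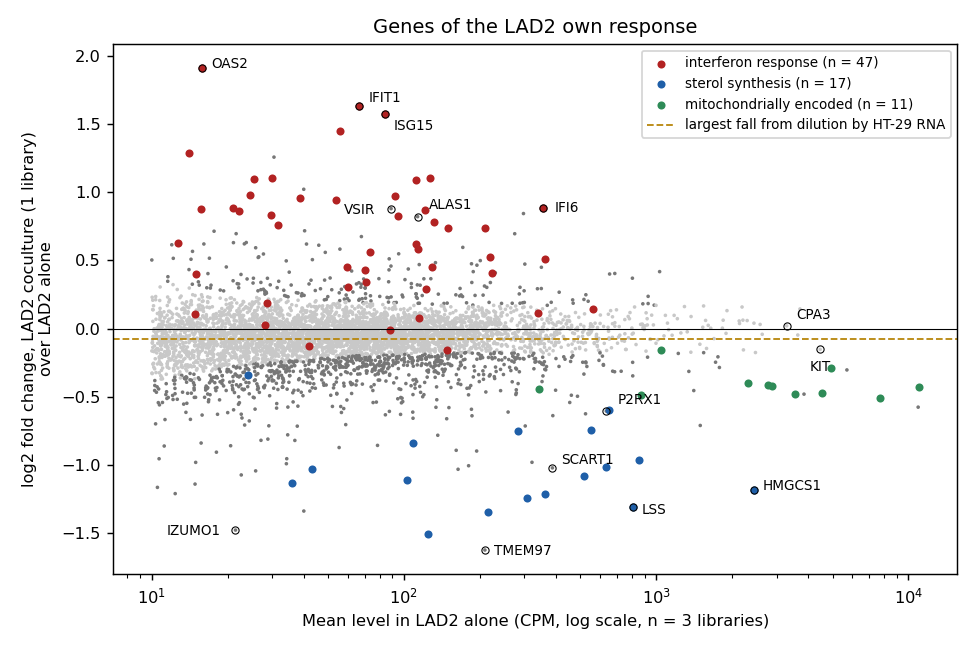
Each point is 1 of the 5244 genes, with its mean level in LAD2 alone (CPM, log axis, n = 3 libraries) against its log2 fold change in the 1 LAD2 coculture library. Dark grey points were called at an adjusted p under 0.05, coloured points are the genes of 3 lists, open circles are named genes, and the dashed line at -0.08 is the largest fall that 5.26% of HT-29 RNA gives. Interferon response genes form much of the upper edge up to 1.91, and sterol synthesis genes reach down to -1.51. TMEM97, of the sterol sensing and uptake list, lies lower at -1.62, and IZUMO1 at -1.48 is also at the lower edge. The mitochondrially encoded genes sit between -0.16 and -0.51 at high levels.

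The shift of the whole set followed the HT-29 level. For the 724 genes with an HT-29 level under 1% of the LAD2 level, the median log2 fold change was -0.10, where mixing gives -0.08, and in the mixture fit it was -0.02. For the 2420 genes with an HT-29 level between 50% and 100% of the LAD2 level, it was -0.04, where mixing gives -0.02. Small falls in the rest of the text are therefore read together with the mixture fit.

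**Figure D2:**
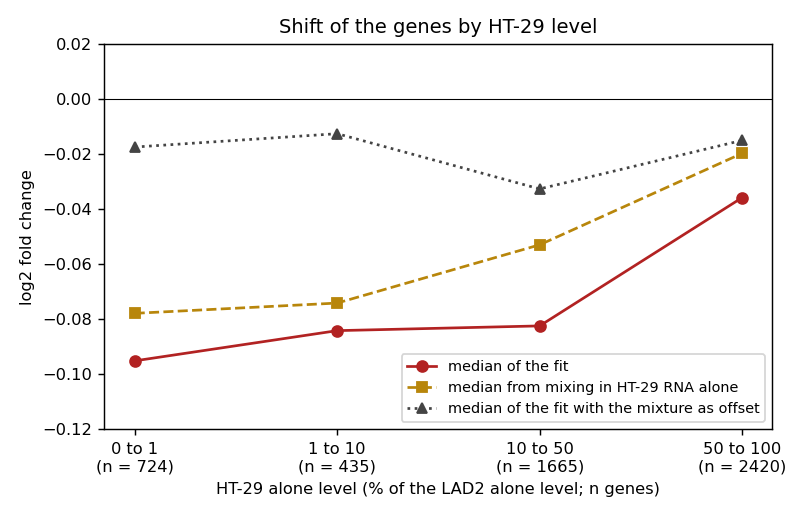
Median log2 fold change (y axis) of the 5244 genes in 4 bins of the HT-29 alone level as a percentage of the LAD2 alone level (x axis, with the number of genes). Circles are the fit, squares the level that mixing in HT-29 RNA gives and triangles the mixture fit; the first 2 rise from left to right, from -0.10 to -0.04 and from -0.08 to -0.02, and the third stays between -0.03 and -0.01.

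Interferon-stimulated genes made up 26 of the 45 genes called at least 1.5-fold higher. Of 61 listed interferon response genes, 47 met the rule, and 38 of these were higher and 0 lower, with a median log2 fold change of 0.74, against -0.06 for all 5244 genes. Counts of genes called higher stand against the background of 4.44% given above. Summed over the list, the level was 5102, 5233 and 5279 CPM in the 3 alone libraries and 8194 CPM in coculture. These are levels in a library of many cells, so a change in each cell and a change in the mix of cells cannot be told apart. Of the 14 listed genes outside the rule, 9 were below 10 CPM in LAD2 alone and 5 were higher in HT-29. MX1, a GTPase that blocks viruses, was among the former, at 7.56, 10.1 and 9.77 CPM alone and 33.0 CPM in coculture.

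The largest rise of all was that of OAS2, 1 of the 3 enzymes that make 2-5A, a messenger of antiviral defence. It was at 13.0, 17.3 and 17.4 CPM in the alone libraries and 60.2 CPM in coculture (log2 fold change 1.91, SE 0.0941, edgeR adjusted p = 1.80e-20). OAS1 was at 53.04, 53.3 and 60.3 CPM alone and 153 CPM in coculture, and OAS3 at 116, 136 and 128 CPM alone and 274 CPM in coculture. For all 3 the coculture library lay above every alone library, which also held for 22.6% of the 5244 genes. Among the other antiviral enzymes RSAD2 (viperin) rose by 0.83 and the RNA editor ADAR by 0.51.

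Of the IFIT and IFITM family, 5 of 7 rose. IFIT proteins bind foreign RNA ends, and IFITM proteins act in membranes against virus entry. IFIT1 was at 65.6, 63.3 and 70.8 CPM alone and 208 CPM in coculture, IFIT2 at 30.6, 28.97 and 30.7 against 65.1 CPM, IFIT3 at 110, 109 and 117 against 240 CPM and IFIT5 at 21.8, 20.2 and 24.2 against 40.5 CPM. None of the 4 overlapped between the groups, which also held for 69.2% of the 5244 genes. IFITM1 was at 50.5, 53.4 and 57.3 CPM alone and 104 CPM in coculture, while its overlapping neighbour IFITM2 (0.11) and IFITM3 (0.11) were not called. The annotated span of LIPA, a lysosomal lipase on the opposite strand, overlaps IFIT1, IFIT2 and IFIT3, and whether counting used strand is not given in the sources used here. LIPA was lower in coculture (log2 fold change -0.37, edgeR adjusted p = 4.36e-05), the opposite direction to the 3 IFIT genes.

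ISG15 is a ubiquitin-like protein that is attached to other proteins, and 6 of the 7 genes of its conjugation were higher. ISG15 itself was at 78.9, 85.0 and 87.8 CPM alone and 251 CPM in coculture. The ligase HERC5 was at 23.2, 25.7 and 24.7 CPM alone and 48.8 CPM in coculture (log2 fold change 0.98, SE 0.0824, edgeR adjusted p = 4.10e-13). The conjugating enzyme UBE2L6 rose by 0.58, the ligase TRIM25 by 0.41, the related HERC6 by 0.88 and USP18, which removes ISG15 and dampens the receptor, by 0.88. The activating enzyme UBA7 was the exception, at 158, 154 and 133 CPM alone and 134 CPM in coculture, within the range of the alone libraries (edgeR adjusted p = 0.141). The mono-ADP-ribosyltransferase PARP9 and its partner DTX3L, whose genes overlap on opposite strands, rose by 0.97 and 0.74.

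Among the other induced genes, 20 of 23 rose. IFI44 went from 12.7, 14.6 and 14.99 CPM to 34.7 CPM, IFI35 from 24.04, 24.9 and 27.7 CPM to 55.1 CPM and IFI6, a small membrane protein, from 341, 356 and 375 CPM to 664 CPM. IFI27 rose by 0.74 (206, 204 and 216 CPM alone, 351 CPM in coculture) and XAF1, which favours apoptosis, by 0.78. GBP1, a guanylate-binding protein, rose by 0.40, and GBP2 and GBP3 were not called (0.03 and 0.19). IFI16, a DNA sensor, was at 542, 553 and 583 CPM alone and 623 CPM in coculture, above all 3 alone libraries, but was not called (log2 fold change 0.15, edgeR adjusted p = 0.102) and was called in the mixture fit (0.22, adjusted p = 0.0221).

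**Figure D3:**
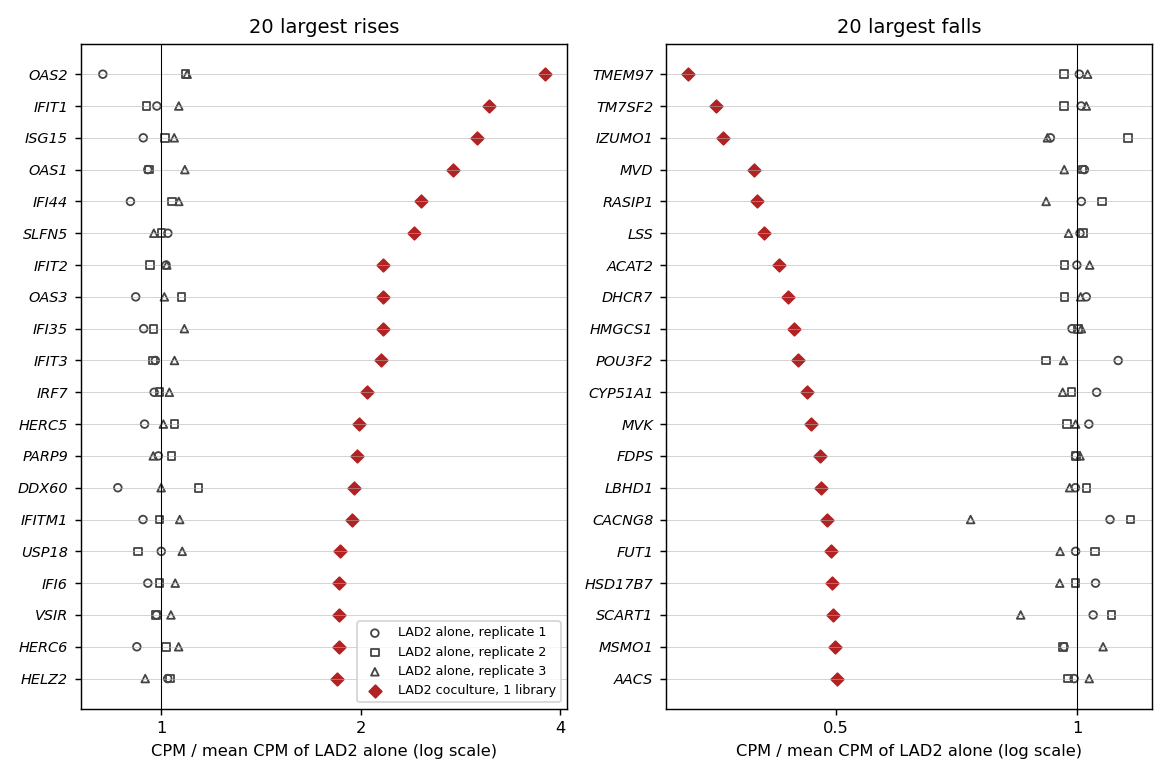
The level of the 20 largest rises (left) and 20 largest falls (right) in each LAD2 library, as CPM divided by the mean CPM of the 3 alone libraries (log axis). Open symbols are the alone libraries and filled diamonds the coculture library; the diamonds lie outside the alone libraries in all 40 genes, as the choice of these genes requires, and the spread of the alone libraries is widest for CACNG8.

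The genes that carry the interferon signal changed unevenly. Of 24 interferon signalling genes in the rule, 7 were higher and 3 lower, with a median of 0.06. The transcription factor IRF7, which is itself induced by interferon, was at 39.1, 39.8 and 41.2 CPM alone and 81.9 CPM in coculture (log2 fold change 1.02, SE 0.0714, edgeR adjusted p = 1.69e-15). STAT2 rose by 0.33. Of the RNA sensors, RIGI rose by 0.72, IFIH1 by 0.61 and their relative DHX58 by 0.59, whereas the adaptor MAVS was not called (-0.07). IRF1, an early interferon gamma target, was at 44.5, 44.5 and 44.4 CPM alone and 51.3 CPM in coculture and was not called (log2 fold change 0.20, edgeR adjusted p = 0.0609).

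The receptors and their kinases included no gene called higher. IFNAR1 was at 62.3, 66.7 and 65.1 CPM alone and 62.5 CPM in coculture and IFNAR2 at 25.4, 25.9 and 26.8 against 28.0 CPM, neither called. Of the receptor kinases, TYK2 was lower at 192, 200 and 176 CPM alone and 157 CPM in coculture (log2 fold change -0.28, edgeR adjusted p = 0.00227, and 0.0482 in the mixture fit). JAK2 fell by 0.36 and the DNA-sensing adaptor STING1 fell by 0.27, and both calls were lost in the mixture fit (adjusted p = 0.0939 and 0.0730).

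Of 16 genes of antigen presentation by MHC class I, 7 were higher, 1 lower and 8 not called, with a median of 0.19, and 9 were higher and 0 lower in the mixture fit. NLRC5, the transactivator of class I genes, went from 16.4, 19.5 and 17.1 CPM to 29.2 CPM (log2 fold change 0.71, SE 0.0978, edgeR adjusted p = 1.38e-07). The peptide transporter genes TAP2 and TAP1 rose by 0.50 and 0.30, the immunoproteasome subunits PSMB8 and PSMB9 by 0.42 and 0.40, and HLA-F by 0.33. TAPBPL, a peptide editor, fell by 0.24, and this call was lost in the mixture fit (adjusted p = 0.303). Reads of HLA genes can be shared between close copies. Of the 5 class II genes in the rule, including HLA-DRB1 and HLA-DPA1, 0 were called by edgeR, DESeq2 or limma-voom, and 1 had an unadjusted edgeR p under 0.05.

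Sterol synthesis genes that met the rule were lower throughout the pathway and made up 16 of the 78 genes called at least 1.5-fold lower. Of 22 listed genes, 17 met the rule, and 0 were higher and 17 lower, with a median of -1.08; the background of lower calls was 6.75% of all tested genes and 15.6% of the 5244. The list summed to 9250, 9271 and 9516 CPM alone and 4840 CPM in coculture. In the mixture fit 16 were called, with a median of -1.02, and GGPS1, which makes a side product used to anchor proteins, was the exception (adjusted p = 0.0723). The other 5 listed genes were higher in HT-29 and outside the rule. All 22 were tested, and 20 were called lower and 0 higher. By branch, 8 of 9 were lower in the mevalonate pathway and 12 of 13 from squalene to cholesterol.

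In the mevalonate pathway 8 of 8 genes fell. HMGCS1, which makes HMG-CoA, was at 2403, 2445 and 2468 CPM alone and 1082 CPM in coculture. The largest fall of the pathway was that of the decarboxylase MVD, at 220, 219 and 207 CPM alone and 85.2 CPM in coculture (log2 fold change -1.35, SE 0.0711, edgeR adjusted p = 1.81e-19). ACAT2, which joins the first acetyl units, fell by 1.24, the kinase MVK fell by 1.11, FDPS fell by 1.08, the isomerase IDI1 fell by 0.74 and GGPS1 fell by 0.34. The groups did not overlap in any of the 8, nor in 69.2% of the 5244 genes. MVK overlaps MMAB on the opposite strand, which also fell (log2 fold change -0.63).

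From squalene to cholesterol 9 of 9 genes fell, from FDFT1, the first enzyme committed to sterols, to DHCR7, the last step. FDFT1 was at 643, 627 and 676 CPM alone and 431 CPM in coculture (log2 fold change -0.60, SE 0.0667, edgeR adjusted p = 1.05e-09). LSS, which closes the ring, was at 816, 822 and 789 CPM alone and 329 CPM in coculture. DHCR7 was at 372, 349 and 366 CPM alone and 158 CPM in coculture. The reductase TM7SF2 fell by 1.51, CYP51A1 fell by 1.13, HSD17B7 fell by 1.03, MSMO1 fell by 1.01, SC5D fell by 0.84 and EBP fell by 0.75. HSD17B7 has a near-identical pseudogene copy, HSD17B7P2, that was also lower (log2 fold change -1.14), so that their reads may be split.

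Sterol sensing and uptake genes fell in part. Of 10, 6 were lower and 0 higher. TMEM97, which binds the cholesterol transporter NPC1, showed the largest fall of all 5244 genes, at 211, 202 and 216 CPM alone and 68.5 CPM in coculture (log2 fold change -1.62, SE 0.0738, edgeR adjusted p = 1.27e-21). INSIG1, the retention protein of SREBP, was at 838, 842 and 902 CPM alone and 447 CPM in coculture. The carrier STARD4 fell by 0.59 and NPC1 fell by 0.31. SREBF2, which encodes SREBP-2 itself, was at 1236, 1237 and 1197 CPM alone and 1086 CPM in coculture (log2 fold change -0.18, edgeR adjusted p = 0.0367), a call that was lost in the mixture fit (adjusted p = 0.331). Its escort SCAP and the protease MBTPS2 were not called (-0.10 and -0.01).

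Fatty acid synthesis genes that met the rule followed with smaller falls. Of 11 genes, 7 were lower and 0 higher, with a median of -0.28, and 6 were lower in the mixture fit. Of the 21 listed, 7 were higher in HT-29 and 3 were below 10 CPM in LAD2 alone. Over the 19 that were tested, 3 were higher and 8 lower in the fit without mixing, with a median of -0.13. ACSS2, which activates acetate, was at 162, 158 and 163 CPM alone and 87.5 CPM in coculture (log2 fold change -0.89, SE 0.0696, edgeR adjusted p = 4.76e-14). The neighbouring desaturase genes FADS1 and FADS2 both fell by 0.71, the elongase ELOVL6 fell by 0.58, and ACLY, which supplies cytosolic acetyl-CoA, fell by 0.50. SCD, the desaturase that makes oleate, was at 1775, 1754 and 1812 CPM alone and 1472 CPM in coculture, below every alone library (log2 fold change -0.28, edgeR adjusted p = 0.000831). Fatty acid oxidation genes showed 0 higher and 1 lower of 9, ECI2 (-0.28), which was lost in the mixture fit (adjusted p = 0.290).

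**Figure D4:**
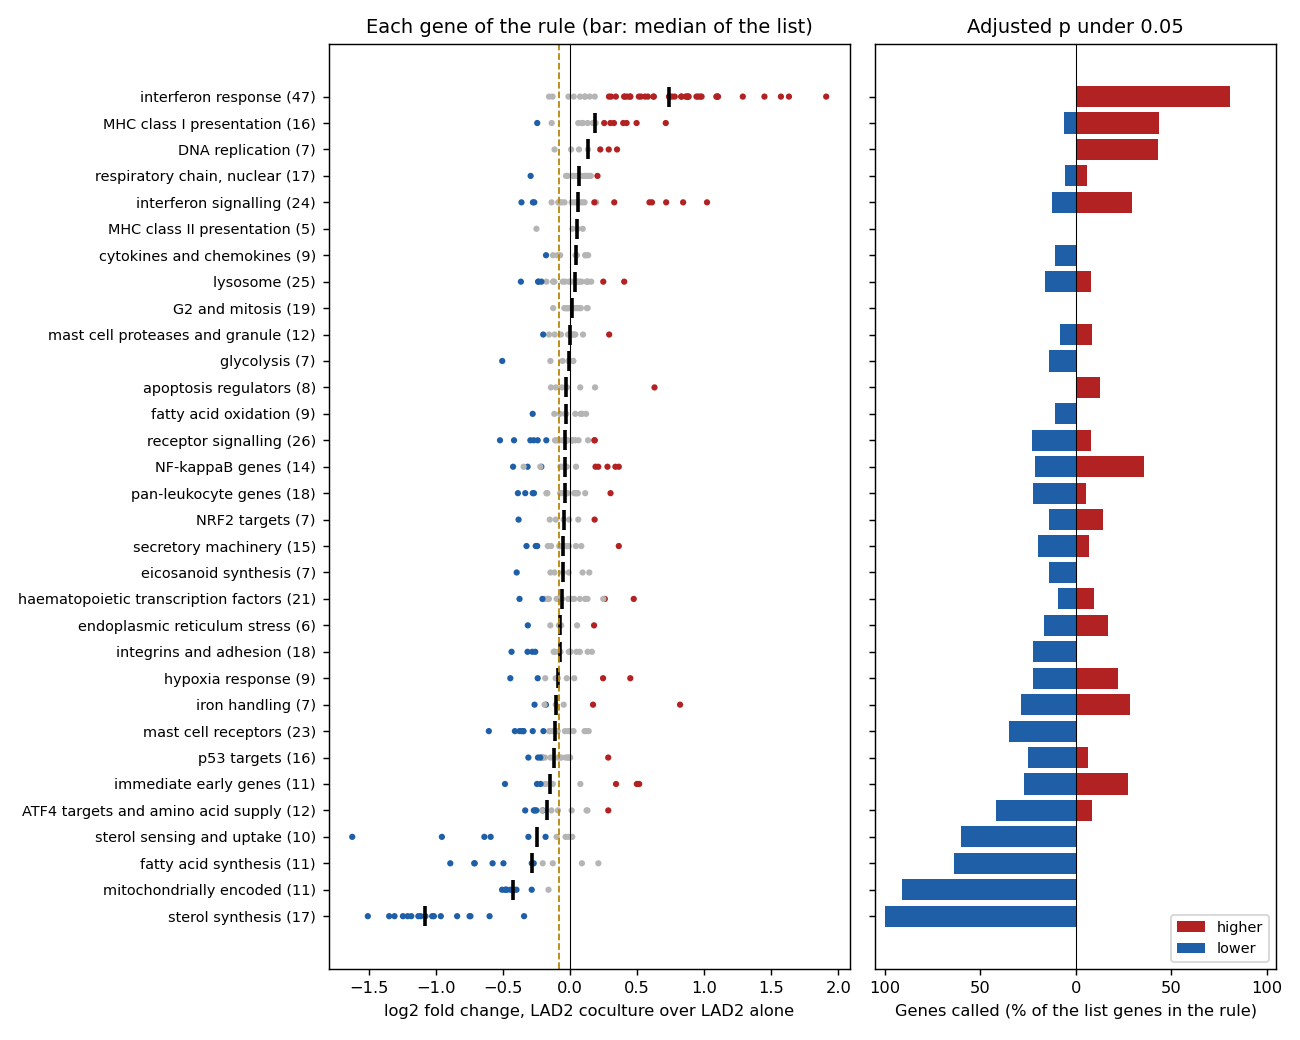
Log2 fold change of each gene of the rule by gene list (left; number of genes in parentheses, black bar for the median, red for called higher, blue for called lower, grey for not called) and the percentage of those genes called higher or lower (right). The dashed line at -0.08 is the largest fall that HT-29 RNA gives; interferon response stands at the top with a median of 0.74, and sterol synthesis at the bottom with -1.08, followed by mitochondrially encoded genes with -0.42.

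Transcripts encoded in the mitochondrial genome were lower together. Of 13, 11 met the rule, and 0 were higher and 10 lower, with a median of -0.42, and the same counts were found in the mixture fit. The 13 genes took 4.72%, 4.71% and 4.21% of the counts in the alone libraries and 3.44% in coculture, against 2.63% to 3.08% in HT-29 alone. MT-ND4, a subunit of complex I, was at 7988, 8126 and 7057 CPM alone and 5478 CPM in coculture (log2 fold change -0.51, SE 0.0738, edgeR adjusted p = 5.34e-07). MT-CO1, of complex IV, was at 11438, 11463 and 10163 CPM alone and 8267 CPM in coculture. Replicate 3 of the alone libraries was lower than the other two in every one of the 11 genes, and the coculture library was lower again. MT-CO2 fell by 0.28 and MT-ND3 was not called (-0.16, edgeR adjusted p = 0.0733). Of 17 nuclear genes of the same respiratory chain, 1 was higher, NDUFS7 (0.21), and 1 lower, NDUFA12 (-0.29), with a median of 0.07. The lower mitochondrial share of HT-29 is part of the baseline of the mixture fit.

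Of 12 mast cell protease and granule genes, 1 was higher, 1 lower and 10 not called, with a median of 0.00, and over all 5244 genes 20% were called. CPA3, the carboxypeptidase of mast cell granules, was at 3150, 3178 and 3548 CPM alone and 3364 CPM in coculture, within the range of the alone libraries. The tryptase genes TPSAB1 and TPSB2, near-identical copies whose reads may be split, were at 2339 to 2569 CPM and 2464 to 2644 CPM alone and at 2528 and 2657 CPM in coculture, neither called. HDC, which makes histamine, was at 2255, 2341 and 2056 CPM alone and 2004 CPM in coculture. Its log2 fold change was -0.16 (edgeR adjusted p = 0.111), and -0.08 in the mixture fit (adjusted p = 0.637). Without replicates 1, 2 and 3 of LAD2 alone it was -0.14, -0.12 and -0.20 (edgeR adjusted p = 0.484, 0.305 and 8.2e-07). With a spread shared by all libraries it was -0.16 (edgeR adjusted p = 0.0102). SRGN, the serglycin that packs the granule, was the one that rose, at 327, 333 and 356 CPM alone and 417 CPM in coculture (log2 fold change 0.29, SE 0.0636, edgeR adjusted p = 0.000433). TPSG1, a membrane tryptase, fell by 0.20, and this call was lost in the mixture fit (adjusted p = 0.388).

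Surface receptors of mast cells showed 0 higher and 8 lower of 23, against 15.6% lower over the 5244 genes, and 5 lower in the mixture fit, against 7.46%. Their median was -0.11. The largest fall was that of P2RX1, an ATP-gated channel, at 659, 664 and 580 CPM alone and 420 CPM in coculture (log2 fold change -0.60, SE 0.0705, edgeR adjusted p = 3.40e-09, and 4.34e-07 in the mixture fit). P2RX7, a second ATP-gated channel, fell by 0.36, the adenosine receptor ADORA2B fell by 0.41, the anaphylatoxin receptor C3AR1 fell by 0.35 and MILR1 (allergin), an inhibitor of IgE signalling, fell by 0.38, all of them also in the mixture fit. MRGPRX2, the receptor for basic secretagogues, was at 533, 547 and 513 CPM alone and 441 CPM in coculture (log2 fold change -0.28, edgeR adjusted p = 0.000986, but 0.0541 in the mixture fit). The falls of ADORA3 and CSF2RB were also lost there (adjusted p = 0.0996 and 0.328).

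The receptors for IgE and stem cell factor were not among them. FCER1A was at 87.5, 88.0 and 99.6 CPM alone and 92.4 CPM in coculture, MS4A2 at 728, 769 and 748 against 707 CPM, and FCER1G at 549, 539 and 577 against 554 CPM, and 0 of these 3 subunits of the IgE receptor were called by edgeR, DESeq2 or limma-voom or had an unadjusted edgeR p under 0.05. KIT was at 4423, 4536 and 4442 CPM alone and 4049 CPM in coculture, below all 3 alone libraries but not called (log2 fold change -0.15, edgeR adjusted p = 0.104, and -0.07 with 0.639 in the mixture fit). It was called by DESeq2 (adjusted p = 0.0271) and limma-voom (0.046) and without replicate 3 of LAD2 alone (edgeR adjusted p = 0.000108). The transcription factors MITF and GATA2 were not called (-0.09 and 0.03).

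**Figure D5:**
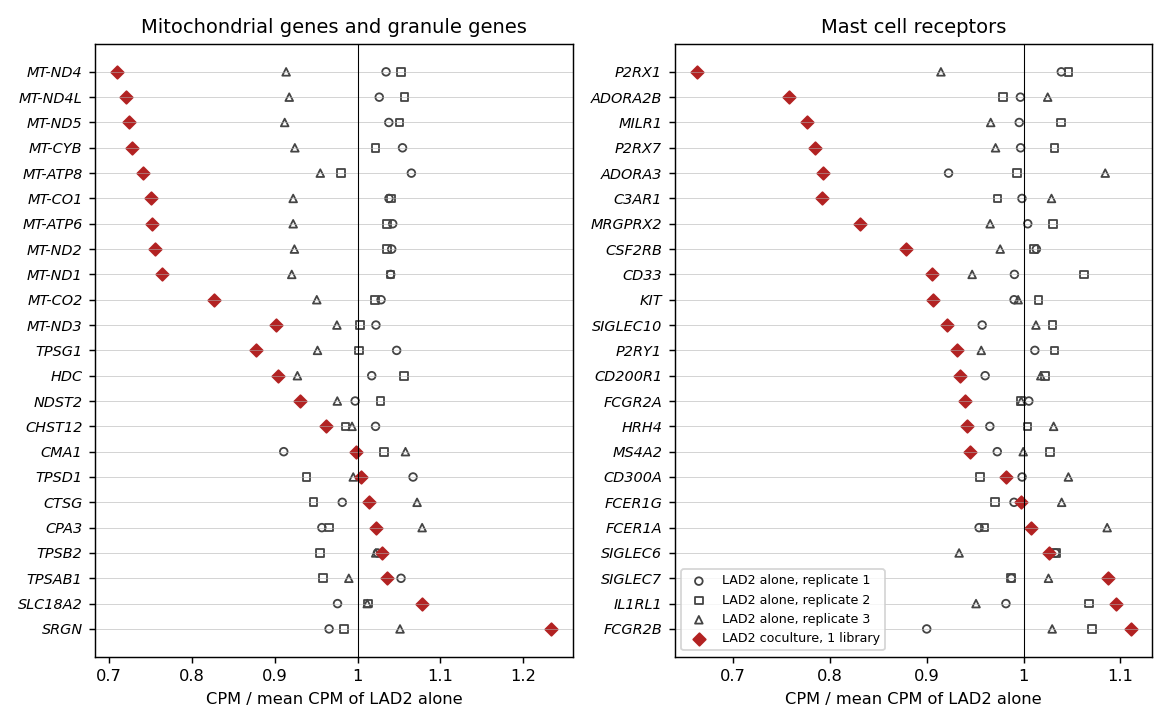
The level of mitochondrially encoded and granule genes (left) and of mast cell receptors (right) in each LAD2 library, as CPM divided by the mean CPM of the 3 alone libraries (linear axis). Open symbols are the alone libraries and filled diamonds the coculture library; the diamonds lie lowest for MT-ND4 and P2RX1 and above the alone libraries for SRGN.

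Signal transduction and secretion genes changed by small amounts. Of 26 receptor signalling genes, 2 were higher and 6 lower, and 2 higher and 3 lower in the mixture fit. Beside this list and those that follow, 4.44% of the 5244 genes were called higher and 15.6% lower. In the mixture fit these shares were 5.05% and 7.46%. The lower genes included the adaptor LAT (-0.52) and RASGRP4 (-0.29), a mast cell activator of RAS, both also called in the mixture fit, and BTK (-0.18), LAT2 and PIK3CD, which were not (adjusted p = 0.480, 0.126 and 0.0548). Of 15 secretory genes, RAB3D, a GTPase of secretory granules, rose from 76.0, 65.8 and 65.9 CPM to 89.7 CPM (log2 fold change 0.36, edgeR adjusted p = 0.000187), and STX4 and VAMP2 of the fusion machinery fell by 0.32 and 0.24, of which STX4 was also called in the mixture fit and VAMP2 was not (adjusted p = 0.137). Of 7 genes of prostaglandin and leukotriene metabolism, the receptor PTGER4 fell by 0.40, a call lost in the mixture fit (adjusted p = 0.0894), and HPGDS, which makes prostaglandin D2, was not called (-0.14).

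Transcription factors and early response genes that met the rule went both ways, beside 4.44% higher and 15.6% lower over the 5244 genes. Of 21 haematopoietic factors, BHLHE40 rose from 189, 186 and 180 CPM to 259 CPM (log2 fold change 0.48, SE 0.0617, edgeR adjusted p = 4.25e-08), ZFPM1 rose by 0.26, and NFE2 and RUNX3 fell by 0.38 and 0.20. Of 11 immediate early genes, BTG2, NR4A1 and IER5 rose by 0.50, 0.52 and 0.34, and SRF, ZFP36 and ZFP36L1 fell by 0.48, 0.24 and 0.22. Of the 28 listed, 11 were below 10 CPM in LAD2 alone and 6 were higher in HT-29. All 28 were tested, and 15 were higher and 3 lower in the fit without mixing, with a median of 0.43. Over all tested genes, 14.1% were higher and 6.75% lower in that fit. The falls of RUNX3, ZFP36 and ZFP36L1 were lost in the mixture fit (adjusted p = 0.412, 0.0629 and 0.0732). SRF, the factor that binds serum response elements, was at 120, 119 and 121 CPM alone and 86.4 CPM in coculture. Of 14 NF-kappaB genes, 5 were higher, among them the inhibitors NFKBIE (0.36) and NFKBIA (0.28), and 3 lower, among them TNFAIP3 (-0.42), which switches the pathway off, and NFKB2 (-0.31).

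Single genes stood out in other lists. ALAS1, which starts haem synthesis, was at 115, 112 and 113 CPM alone and 201 CPM in coculture (log2 fold change 0.82, SE 0.0622, edgeR adjusted p = 1.89e-14). BCL2, which blocks apoptosis, was at 20.9, 20.9 and 21.4 CPM alone and 32.9 CPM in coculture (log2 fold change 0.63, edgeR adjusted p = 2.79e-07) and was the 1 called of 8 apoptosis genes. EPAS1 (HIF-2 alpha) rose by 0.45 and HIF1A by 0.25, and the hypoxia target BNIP3 fell by 0.44. CTSB, a lysosomal protease, went from 670, 680 and 706 CPM to 913 CPM (log2 fold change 0.40, edgeR adjusted p = 1.35e-06), and the aldolase ALDOC fell by 0.50. Of 12 genes of the ATF4 list, 5 fell and 1 rose, DDIT3 (0.29), and 3 were lower in the mixture fit, where the falls of the amino acid transporters SLC1A4 and SLC38A2 were lost (adjusted p = 0.0726 and 0.0793).

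Genes of cell division were measured in small part. Of 19 genes of G2 and mitosis, 0 were called by edgeR, DESeq2 or limma-voom, 0 in the mixture fit and 0 at an unadjusted edgeR p under 0.05, and of 7 DNA replication genes, CCNE2, CDT1 and E2F2 rose by 0.35, 0.23 and 0.29. Of 45 DNA replication genes listed, 34 were higher in HT-29 and outside the rule, so these counts cover a small share of that pathway. The same holds for ribosomal proteins, with 3 of 77 in the rule, and for the proteasome, with 2 of 31. Of 9 cytokine genes, 0 were higher and 1 lower, IL1RN (-0.18), the receptor antagonist of interleukin 1, which was lost in the mixture fit (adjusted p = 0.430), and 30 listed cytokines were below 10 CPM in LAD2 alone.

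Outside the interferon list, the 20 largest rises held SLFN5, IRF7 and VSIR, and 17 of the 20 were interferon response genes. SLFN5, a member of the Schlafen family, was at 31.2, 30.6 and 29.8 CPM alone and 73.4 CPM in coculture (log2 fold change 1.26, SE 0.0740, edgeR adjusted p = 6.73e-18). VSIR, the immune checkpoint protein VISTA, was at 87.5, 87.3 and 92.0 CPM alone and 165 CPM in coculture (log2 fold change 0.88, SE 0.0643, edgeR adjusted p = 6.40e-15). Of the 20 largest falls, 11 were sterol synthesis genes, and 1 more, AACS, activates acetoacetate for lipid synthesis (179, 176 and 187 CPM alone, 90.6 CPM in coculture).

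The falls outside lipid metabolism included neighbours in the genome. On chromosome 19, RASIP1, IZUMO1 and FUT1 follow each other with gaps of 130 and 1101 bases. RASIP1 was at 40.6, 43.0 and 36.7 CPM alone and 16.0 CPM in coculture, IZUMO1 at 19.9, 24.8 and 19.7 against 7.77 CPM, and FUT1, a fucosyltransferase, at 163, 172 and 156 against 80.8 CPM, with log2 fold changes of -1.34, -1.48 and -1.03. None of the 3 overlapped between the groups, which also held for 69.2% of the 5244 genes. SCART1 (-1.02) overlaps CYP2E1 (-0.95) on chromosome 10, and GGT7 (-0.84) overlaps ACSS2 on chromosome 20. CACNG8 spread widely alone, at 28.4, 30.1 and 19.0 CPM, against 12.6 CPM in coculture, and was not called by DESeq2 (adjusted p = 0.0828) or limma-voom (adjusted p = 0.0529). POU3F2, a transcription factor at 11.8, 9.62 and 10.1 CPM alone and 4.73 CPM in coculture, passed the CPM minimum narrowly.

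Some genes were picked after their values had been seen. TSC22D3, a glucocorticoid-induced leucine zipper protein, was at 323, 315 and 327 CPM alone and 164 CPM in coculture (log2 fold change -0.98, SE 0.0675, edgeR adjusted p = 1.10e-15). PER1 and FKBP5, further genes induced by glucocorticoids, had log2 fold changes of -0.45 and -0.18 (edgeR adjusted p = 0.00178 and 0.0404). In the mixture fit PER1 was at -0.42 (adjusted p = 0.0111) and FKBP5 at -0.13, where its call was lost (adjusted p = 0.307). Of the same kind, SGK1 and KLF9 were not called (0.10 and 0.06). SUCNR1, the receptor of succinate, was at 92.0, 95.1 and 98.7 CPM alone and 140 CPM in coculture (log2 fold change 0.55, edgeR adjusted p = 6.27e-09). F2RL3, which encodes a protease-activated receptor, was at 33.2, 33.9 and 35.4 CPM alone and 17.3 CPM in coculture (log2 fold change -0.99, edgeR adjusted p = 2.57e-11).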

How the data were processed

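RNA was sequenced by the study from 12 labelled samples, of which 10 libraries are distinct. The authors deposited raw counts per gene, and the submitters' processing notes name the build hg38 and the tools STAR 2.7.10a, FastQC 0.11.9 and DESeq2 3.24.0. The sources used here do not name the counting program, its strand setting or its annotation. Identifiers were matched to GENCODE release 29.

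LAD2 coculture (1 library) was compared with LAD2 alone (3 libraries) with the quasi-likelihood F test of edgeR 4.0.16 (R 4.3.3; two-sided; TMM factors; filterByExpr), adjusted by Benjamini-Hochberg over 15821 genes, on 2 residual degrees of freedom. The biological coefficient of variation was 4.03%. A call is an adjusted p under 0.05. The SE given is the absolute log2 fold change divided by the square root of the F value. Levels are CPM by column total, and a gene with 0 counts could hold up to 3 counts (0.118 to 0.146 CPM per LAD2 library; counting error only). CPM does not correct for length, so levels were compared only between libraries. The mixture fit used the logarithm of the mixed profile of both lines as an offset. On simulated data the test recovered 98 of 100 genes changed 1.5-fold and 100 of 100 changed 2-fold, and called 13 of 14840 unchanged genes. Every simulated gene was drawn with the same 4.03%, whereas real genes differ in spread, and only genes at 10 CPM or more were changed. The simulated setting may thus be easier than the data. The simulated coculture library was drawn with the spread of the alone libraries, so that this says nothing of how a coculture library varies.

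Of 1090 genes in 41 lists, 1085 were matched. Named genes are the 20 strongest called rises and the 20 strongest called falls under the rule, fixed mast cell genes, and per list the 4 of smallest p or, in lists of up to 12, all; pseudogenes and antisense genes were passed over in the rises and falls. Other genes are named as exceptions or examples after their values were seen, and a few genes are not reported here. The members, lists and rules were chosen with earlier results of these data known. Alternatives were RLE factors, column totals, no filter, DESeq2 1.42.0, limma-voom 3.58.1, a spread shared by all libraries, the mixture fit (with HT-29 levels from HT-29 alone or, added after the data were seen, from coculture), and each alone library left out.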

Additional observations from a re-analysis of the deposited data

How the results depend on the processing

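The counts of interferon response genes called higher (37 to 41) and of sterol synthesis genes called lower (16 or 17) stayed within 1.5 times their main value in all alternatives, and of these calls 37 of 38 and 16 of 17 were made in each of the 10 planned ones. The totals moved more. Over all tested genes 3298 calls became 1791 with DESeq2, 977 in the mixture fit and 983 with the levels of cocultured HT-29 in it (an alternative added after the data were seen), and 2499 to 4447 when an alone library was left out. Of the genes of the rule, 233 higher calls became 143 with DESeq2 and 352 with a spread shared by all libraries, and 172 to 387 when an alone library was left out. The 816 lower calls became 371 with DESeq2, 513 with limma-voom and 391 in the mixture fit (392 with cocultured HT-29), and 533 to 1188 when an alone library was left out, the lowest without replicate 1 and the highest without replicate 3. With HT-29 held to at most 10% of the LAD2 level, 1159 genes were counted, and 72 were higher (6.21%) and 280 lower (24.2%). These counts are from the fit without mixing, and such genes are the most diluted by HT-29 RNA. In the mixture fit, 54 were higher and 76 lower of the 724 genes with HT-29 under 1%. Of the 435 genes from 1% to 10%, 49 were higher and 43 lower there. The cause of the other moves was not tested. Of 53 genes followed one by one, 44 kept direction and side of the threshold throughout. The size of the adjusted p depended on the test. Those of OAS2 and TMEM97 were many orders of magnitude larger with limma-voom than with edgeR, though both stayed called. Those that turned sign lay near 0 and were never called. CMA1 stood at 0.0053 without a filter and 0.064 in the mixture fit (0.062 with cocultured HT-29), and between -0.074 and 0.033 (0.0047 in between) with an alone library left out. FCER1A stood at -5.12e-05 with DESeq2 size factors and -0.00059 with the shared spread, and FCER1G at 0.0062 without a filter and 0.065 in the mixture fit (0.064 with cocultured HT-29). With an alone library left out, CPA3 ranged from -0.0084 to 0.082, FCER1A from -0.031 to 0.068, FCER1G from -0.037 to 0.019 and TPSB2 from -0.0039 to 0.050. The single coculture library limits every statement here. No paired analysis was possible because the LAD2 coculture columns hold 1 library.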

Other observations

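Genes outside the rule also differed between the LAD2 libraries. EGR3, an immediate early transcription factor at 0.00976 CPM in HT-29 alone, was at 0.195, 0.0962 and 0.0884 CPM in LAD2 alone and 3.07 CPM in coculture (edgeR log2 fold change 4.55), under the CPM minimum of the rule. EGR1 was at 1.07, 0.770 and 0.973 CPM alone and 13.96 CPM in coculture, with 47.9 CPM in HT-29 alone, and its log2 fold change was 3.88 and in the mixture fit 2.03. The mixture fit takes HT-29 levels from HT-29 alone, and with those of cocultured HT-29, where EGR1 was at 41.2 CPM, its value was 2.19. FOS was at 0.536, 0.866 and 1.11 CPM alone and 9.11 CPM in coculture, and its log2 fold change of 3.41 was 2.11 in the mixture fit and 2.14 with cocultured HT-29. In contrast, ETV4, an effector of ERK signalling, was at 0 to 0.0884 CPM alone and 7.69 CPM in coculture, and was not called in the mixture fit (0.61, adjusted p = 0.782). The HT-29 level of ETV4 was 112 CPM.

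Of 10 listed genes of LXR, the receptor of oxysterols, NR1H2, which encodes LXR-beta itself, met the rule and was not called. Over the 7 that were tested, 3 were higher, 0 lower and the rest not called, with a median log2 fold change of 0.10. Of all genes tested, 14.1% were called higher, and 2.83% in the mixture fit. LPCAT3, a phospholipid-remodelling enzyme, was at 25.4, 24.98 and 23.0 CPM alone and 54.2 CPM in coculture, against 91.5 CPM in HT-29 alone, with a log2 fold change of 1.14 and of 0.95 in the mixture fit (0.96 with cocultured HT-29). ABCA1, a cholesterol exporter, was at 0.390, 0.144 and 0.0884 CPM alone and 1.73 CPM in coculture, with 2.71 CPM in HT-29 alone (2.37 in the mixture fit, adjusted p = 0.0015).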
